A study of Arabidopsis thaliana with 12 samples.

Results

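Cytochrome P450 genes were followed in developing seeds of Arabidopsis thaliana. They were taken as the probe sets annotated to exactly 1 gene whose symbol has the P450 form (CYP, a family number, a subfamily letter and a gene number), with 1 probe set per gene. The rule found 23 genes, each with 1 probe set, of 13285 genes in all that had a probe set of their own. It did not use the measured values, apart from choosing the brightest probe set where a gene had several, which did not arise here. Of the 23 genes, 19 belonged to the CYP71B subfamily and 4 did not: CYP78A9, CYP84A4, CYP79A2 and CYP51G2. The gene table used for names holds 236 P450 symbols, so the 23 are 9.75% of them and do not stand for the whole superfamily.

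P450s are heme enzymes that add oxygen to small molecules, and in plants they are usually anchored in the membrane of the endoplasmic reticulum and take electrons from a reductase. Their families carry out steps in the synthesis of hormones, pigments, lignin and defence compounds, and duplicated neighbours on a chromosome often form a subfamily, as in CYP71B. Substrates are known for only some CYP71B enzymes. CYP71B6 converts indole-3-acetonitrile to an indole carboxylic acid. CYP84A4 acts on phenylpropanoids in the synthesis of arabidopyrones, and CYP79A2 forms phenylacetaldoxime for benzylglucosinolate. CYP78A9 promotes the growth of fruits and seeds.

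Plants homozygous for abi3-6 were compared with Col-0 wild type. The allele affects ABI3, a regulator of seed maturation that binds DNA through a B3 domain. All grew in long days, and whole seeds taken from the siliques at 12 and 16 days after flowering (DAF) gave 3 arrays in each of the 4 groups, from separate batches of plants. Such seeds hold embryo, endosperm and seed coat together, so fewer cells of a type and less RNA per cell cannot be told apart. ABI3 itself is not reported here, because no probe set was paired with it alone. Values are log2 expression, on which 1 unit is a doubling, and they do not allow the level of one gene to be set against that of another. A probe set was called dim below 3.16 log2 units, the 40th percentile of all values, and was tested where at least 3 of 12 arrays reached that limit. Differences were tested with limma, and passed where p, adjusted by Benjamini-Hochberg over all 14873 probe sets tested, was under 0.05.

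Arrays of 1 group correlated with r between 0.990 and 0.996 over all probe sets. Of 9 measured markers of the maturing embryo, 8 were lower in abi3-6 at 12 DAF and 9 at 16 DAF. Among all probe sets tested 23.7% and 34.6% were lower. At 12 DAF the log2 of the summed signal of the 9 ran from 16.725 to 16.727 in wild type and from 15.01 to 15.14 in abi3-6. At 16 DAF it ran from 16.77 to 16.815 and from 10.87 to 12.18, a wider gap than for the sums of the other markers below. Among 3 measured seed coat markers, ARA12 was higher in the mutant by 0.52 ± 0.15 at 12 DAF and 1.45 ± 0.15 at 16 DAF (SE, log2). BAN did not pass and lay near the dim limit at 12 DAF and under it at 16 DAF, and AT3G50990 was dim. The log2 of the summed signal of the 3 markers ran from 9.85 to 10.1 in wild type and from 10.3 to 10.7 in abi3-6 at 12 DAF, and from 9.63 to 9.96 and from 11.1 to 11.4 at 16 DAF. That sum is nearly all ARA12, whose own values at 12 DAF ran from 9.83 to 10.1 and from 10.3 to 10.7. It therefore adds little beyond that marker. Of 2 silique wall markers, ADPG1 was lower in the mutant at both ages and ALC was lower at 12 DAF and higher at 16 DAF, and the log2 of their summed signal ran from 5.27 to 6.46 in wild type and from 4.08 to 4.58 in abi3-6 at 12 DAF, and from 5.39 to 5.73 and from 4.86 to 5.26 at 16 DAF. None of the 4 endosperm markers had a probe set of its own. The 3′ minus 5′ signal of actin also moved with genotype, from -0.37 ± 0.17 to 0.37 ± 0.09 at 12 DAF and from -0.21 ± 0.02 to 0.37 ± 0.03 at 16 DAF (SD, n = 3, log2), while that of GAPDH was 0.07 ± 0.24 and 0.07 ± 0.16 at 12 DAF and -0.07 ± 0.41 and 0.18 ± 0.12 at 16 DAF. The part of these markers and of the 3′ signal in the results below was not tested. The original array files of the 16 DAF samples share a prefix in their names that those of the 12 DAF samples lack, so age cannot be told apart from what that prefix records.

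Most of these P450 genes were left out of the tests as dim. The limit is a percentile of the array values, and whether the dim transcripts were absent was not tested. Of 23 genes, 9 were tested (39.1%) and 14 were dim, against 60.7% tested among all genes with a probe set of their own. The 9 were CYP71B5, CYP71B6, CYP71B26, CYP71B28, CYP71B34, CYP71B35 and CYP71B37, with CYP78A9 and CYP84A4. Among the dim genes were CYP79A2 of benzylglucosinolate synthesis (2.19 to 2.38 on the 12 arrays), CYP71B31, which acts on the monoterpene alcohol linalool (2.32 to 2.58), and CYP51G2 (2.23 to 2.40), which the gene table lists as a transcribed pseudogene, as it does the dim CYP71B27. In 12 of the 14 no array reached the limit. CYP71B36 reached it on 1 array (3.18 in wild type at 16 DAF, replicate 1), and CYP71B24 did so on the same array, at 4.32 against 2.83 and 2.94 on the other wild-type arrays of that age.

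**Figure D1:**
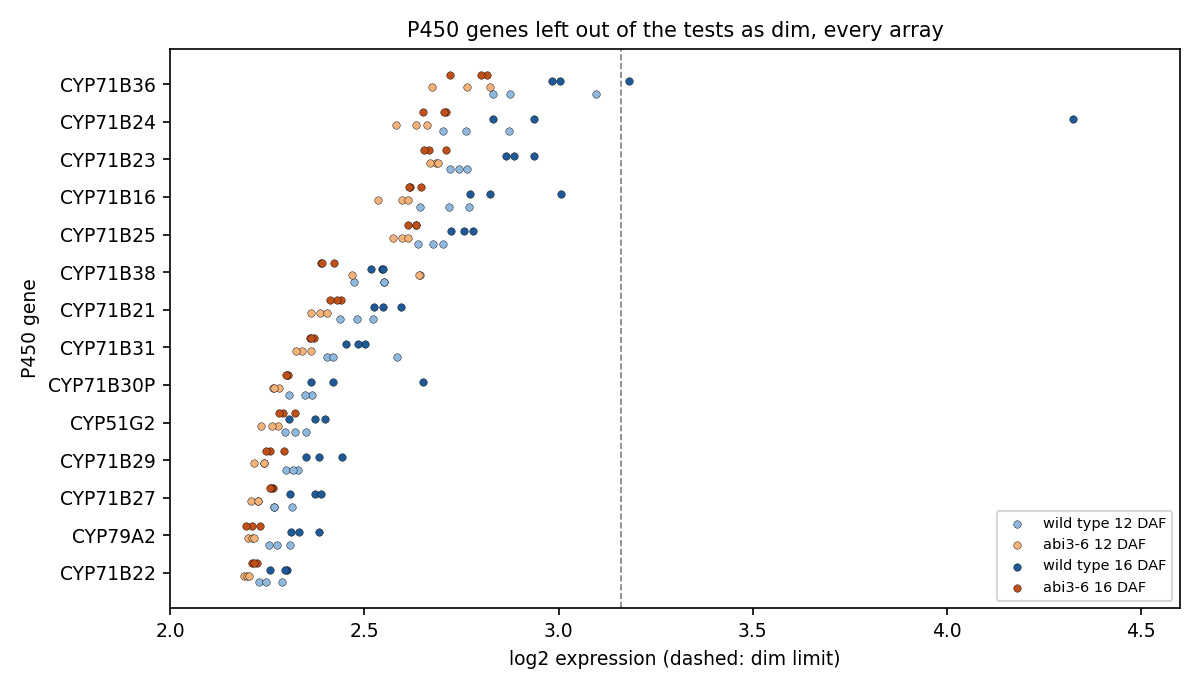
The 14 P450 genes left out of the tests as dim, with log2 expression on the x axis, 1 point for each of the 12 arrays, colours for the 4 groups and a dashed line at the limit of 3.16. Apart from 1 array each for CYP71B36 and CYP71B24, all points lie below the limit.

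Without the filter on dim probe sets, 10 of the 14 dim P450 genes passed as lower in abi3-6 at 16 DAF and 0 as higher (limma). Of all 7873 probe sets left out as dim, 49.7% were lower and 1.77% higher in that comparison. The 14 differences ran from -0.68 to -0.06 with a median of -0.13, against a median of -0.10 over the 7873. At 12 DAF 0 of the 14 passed in either direction, beside 9.74% lower and 1.05% higher. With age, CYP71B23 was higher at 16 DAF in wild type (0.15, beside 9.06% higher and 1.00% lower among the 7873), and CYP71B38 was lower in abi3-6 (-0.18, beside 1.13% lower and 2.43% higher). The interaction passed for CYP71B23 (-0.16, beside 0.800% lower and 0.851% higher). Apart from the single arrays of CYP71B24 and CYP71B36 named above, all values of these genes lie below the dim limit, and the difference of -0.68 is that of CYP71B24, whose wild-type mean at 16 DAF is raised by that array (3.36 ± 0.83 SD, n = 3).

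Several P450 genes are neighbours. Their order was taken from the protein-coding genes and pseudogenes of the TAIR10.1 gene table, and other gene types were not counted. In that order CYP71B25, CYP71B4, CYP71B26, CYP71B33, CYP71B34, CYP71B35, CYP71B36 and CYP71B37 form a run of 8 P450 genes on chromosome 3, with 0 others between them. Of the 6 analysed in that run 4 were tested. In another run on the same chromosome, from CYP71B16 to CYP71B24, all 5 analysed genes were dim. On chromosome 1, CYP71B28 was measured well above the limit while CYP71B27 and CYP71B29, in the same run, were dim. On chromosome 3, CYP71B5 was measured and its neighbours CYP71B30P and CYP71B31 were dim.

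The genotype comparison asked which P450 transcripts depend on genotype at each age. At 12 DAF 6 of 9 were higher in abi3-6, 2 lower and 1 did not pass, beside 50.8% passing among all probe sets tested, 27.1% higher and 23.7% lower. All 6 that rose were CYP71B genes, of 7 tested in that subfamily. At 16 DAF 4 were higher, 3 lower and 2 did not pass, beside 70.2% passing among all, 35.6% higher and 34.6% lower. The median difference of the 9 genes was 0.81 at 12 DAF and -0.17 at 16 DAF, against -0.0033 and -0.0278 over all probe sets tested. CYP71B6, CYP71B26, CYP71B34 and CYP71B35 were higher at both ages, and CYP71B37 was lower at both. CYP84A4 is among those counted as lower at both ages, but it entered the tests only through wild type at 16 DAF, its other groups were dim, and its 12 DAF call did not hold under several settings, so its calls are given as a description. Centring each array on its median moved the median of all probe sets to -0.125 at 12 DAF and -0.388 at 16 DAF, and turned the split of all calls at 16 DAF from 5288 higher and 5151 lower to 4000 and 7295. At 12 DAF it turned 4030 higher and 3530 lower to 3386 and 4528.

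**Figure D2:**
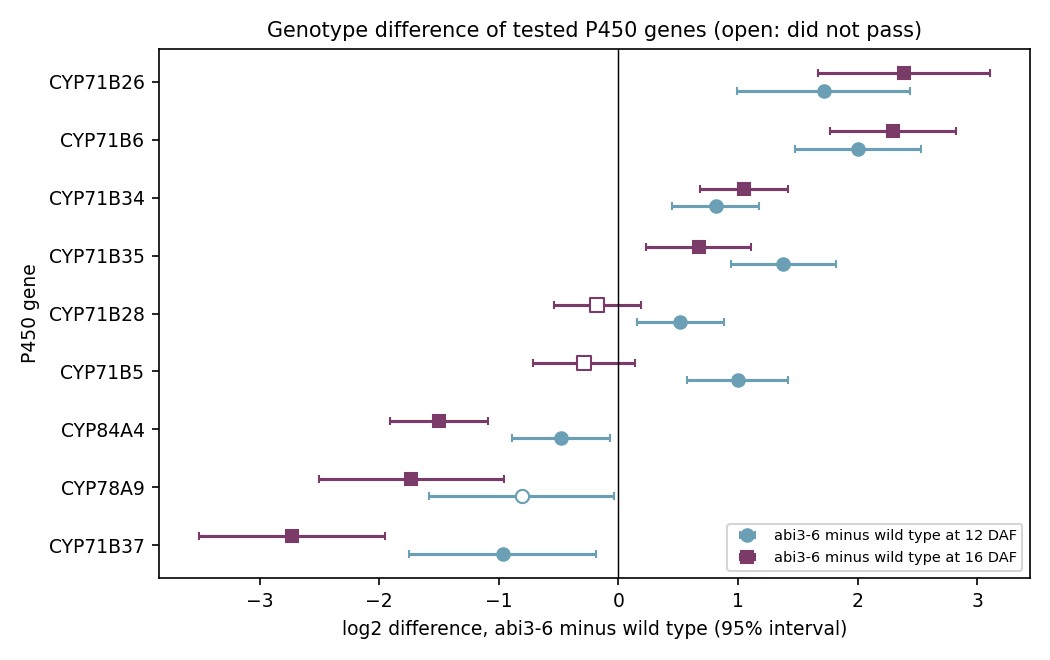
Genotype difference (abi3-6 minus wild type, log2) of the 9 tested P450 genes at 12 DAF (circles) and 16 DAF (squares), with 95% intervals from limma, n = 3 arrays per group. Open symbols did not pass: CYP78A9 at 12 DAF, and CYP71B5 and CYP71B28 at 16 DAF. Both groups of CYP84A4 at 12 DAF lay under the dim limit.

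CYP71B6, the indole-3-acetonitrile enzyme, rose most at 12 DAF. Its values at that age were 4.97, 4.47 and 4.25 in wild type and 6.71, 6.87 and 6.12 in abi3-6. At 16 DAF they were 5.16, 5.90 and 5.86 in wild type and 8.00, 8.02 and 7.79 in abi3-6. All mutant arrays lay above all wild-type arrays of either age. The rise was 4.01-fold at 12 DAF (log2 2.00 ± 0.24 SE, limma adjusted p = 1.34e-05) and 4.91-fold at 16 DAF (2.30 ± 0.24, adjusted p = 1.46e-06), and the change of the difference between ages, 0.29 ± 0.34, did not pass (95% interval -0.45 to 1.04).

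CYP71B26, CYP71B34 and CYP71B35, which lie in the run of 8 on chromosome 3, rose at both ages as well. CYP71B26 stood at 10.35, 9.55 and 9.996 in wild type and 11.89, 11.70 and 11.45 in abi3-6 at 12 DAF. At 16 DAF it stood at 8.50, 7.59 and 7.74 in wild type and 10.95, 10.54 and 9.50 in abi3-6. The groups did not overlap at either age, although the mutant at 16 DAF spread widely. It was 3.29-fold higher in abi3-6 at 12 DAF (log2 1.72 ± 0.33 SE, limma adjusted p = 0.000750) and 5.23-fold at 16 DAF (2.39 ± 0.33, adjusted p = 2.21e-05). The change of the difference between ages, 0.67 ± 0.47, did not pass, but passed without abi3-6 16 DAF replicate 3 (1.09, limma adjusted p = 0.0400) and with array weights (1.06, 0.0429).

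CYP71B34 stood in wild type at 6.58, 6.76 and 6.60 at 12 DAF and at 6.62, 6.19 and 6.56 at 16 DAF. In abi3-6 it read 7.72, 7.40 and 7.26 at 12 DAF and 7.76, 7.38 and 7.37 at 16 DAF. Every mutant array was thus above every wild-type array, by 1.76-fold at 12 DAF (log2 0.81 ± 0.17 SE, limma adjusted p = 0.00130) and 2.07-fold at 16 DAF (1.05 ± 0.17, adjusted p = 8.40e-05). CYP71B35 read 4.83, 4.08 and 4.08 in wild type and 5.87, 5.69 and 5.57 in abi3-6 at 12 DAF. Its 16 DAF values were 3.89, 3.56 and 3.69 in wild type and 4.42, 4.61 and 4.11 in abi3-6, a narrow gap close above the dim limit. Its rise was 1.38 ± 0.20 (SE, log2) at 12 DAF (limma adjusted p = 8.00e-05) and 0.67 ± 0.20 at 16 DAF (adjusted p = 0.00957), and the call at 16 DAF was lost after centring (0.31, adjusted p = 0.184) and quantile normalization (0.37, adjusted p = 0.130). The change of that difference between ages, -0.71 ± 0.29, did not pass (limma adjusted p = 0.0674), but passed after both scalings and without wild type 12 DAF replicate 1 (-0.96) or abi3-6 16 DAF replicate 2 (-0.82).

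CYP71B37, the last gene of the same run, went the other way. At 12 DAF it read 9.66, 9.38 and 9.39 in wild type and 8.83, 8.31 and 8.40 in abi3-6. Its 16 DAF values were 8.80, 8.96 and 8.43 in wild type and 6.36, 6.80 and 4.86 in abi3-6. The mutant lay below wild type without overlap at both ages, and the abi3-6 array of replicate 3 was the lowest at 16 DAF. The fall was 1.95-fold at 12 DAF (log2 -0.97 ± 0.36 SE, limma adjusted p = 0.0391) and 6.63-fold at 16 DAF (-2.73 ± 0.36, adjusted p = 1.32e-05). The difference widened between the ages by 1.76 ± 0.51 (interaction -1.76, limma adjusted p = 0.0144). Without abi3-6 16 DAF replicate 3 the fall at 16 DAF was -2.16 ± 0.21 and the interaction -1.19 ± 0.28 (limma adjusted p = 0.00545), and with no filter the interaction did not pass (adjusted p = 0.0587). The call at 12 DAF was lost without wild type 12 DAF replicate 1 (-0.88), 2 (-1.01) or 3 (-1.01) or abi3-6 12 DAF replicate 2 (-0.87) or 3 (-0.91), with adjusted p from 0.0684 to 0.115, and with no filter (adjusted p = 0.0987).

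**Figure D3:**
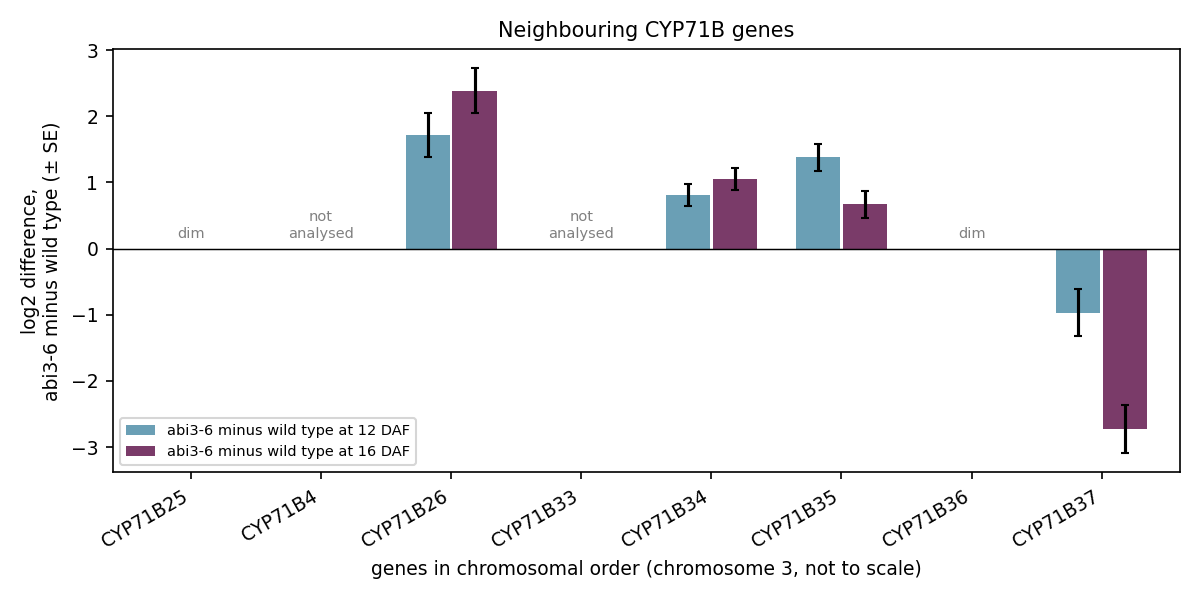
The run of 8 P450 genes on chromosome 3 in chromosomal order, not to scale, with the genotype difference (abi3-6 minus wild type, log2, bars, with SE) at 12 and 16 DAF for the 4 genes tested. CYP71B25 and CYP71B36 were dim, and CYP71B4 and CYP71B33 were not analysed here. CYP71B26, CYP71B34 and CYP71B35 lie above 0 and CYP71B37 below 0 at both ages.

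CYP78A9, the growth-promoting gene, fell with age in both genotypes and was lower in abi3-6 at 16 DAF. At 12 DAF it read 12.88, 13.21 and 12.96 in wild type and 11.98, 12.53 and 12.12 in abi3-6. Its 16 DAF values were 9.86, 10.46 and 9.88 in wild type and 8.96, 8.82 and 7.21 in abi3-6. The genotypes did not overlap at either age, and the gap between the ages was larger than that between the genotypes. At 12 DAF the genotype difference of -0.81 ± 0.36 (SE) did not pass (limma adjusted p = 0.0752, 95% interval -1.58 to -0.04). It passed without abi3-6 16 DAF replicate 3, which narrows the shared spread (-0.81 ± 0.19, limma adjusted p = 0.00347), after centring (-0.93, 0.0427), with array weights (-0.80, 0.0302) and with the 12 DAF arrays alone (0.00545). At 16 DAF the fall was 3.32-fold (-1.73 ± 0.36, limma adjusted p = 0.000675), and -1.17 ± 0.21 without abi3-6 16 DAF replicate 3. The change of the difference between ages did not pass (-0.92 ± 0.51, 95% interval -2.01 to 0.17).

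CYP84A4, the arabidopyrone gene, reached the dim limit in wild type at 16 DAF and in no other group. Its values there were 3.78, 3.68 and 4.47, against 2.64, 2.35 and 2.45 in abi3-6 of the same age. At 12 DAF it read 2.86, 2.99 and 2.62 in wild type and 2.36, 2.32 and 2.35 in abi3-6, all dim. The gene thus entered the tests through the group in which it was high. At 16 DAF it was at least 1.76-fold lower in abi3-6 (limma adjusted p = 8.53e-06). Its interaction of -1.02 ± 0.27 (SE) passed (limma adjusted p = 0.00825), but the mutant and both 12 DAF groups give only an upper bound on the level. The 12 DAF difference of -0.48 ± 0.19 passed narrowly (adjusted p = 0.0496), lies wholly below the dim limit, and was lost with no filter (adjusted p = 0.0762), after quantile normalization (-0.41), with array weights (-0.41) and with 8 of the 12 arrays left out in turn: wild type 12 DAF replicate 1 (-0.46) or 2 (-0.40), any abi3-6 array of 12 DAF (-0.49 to -0.47) and any abi3-6 array of 16 DAF (-0.48).

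**Figure D4:**
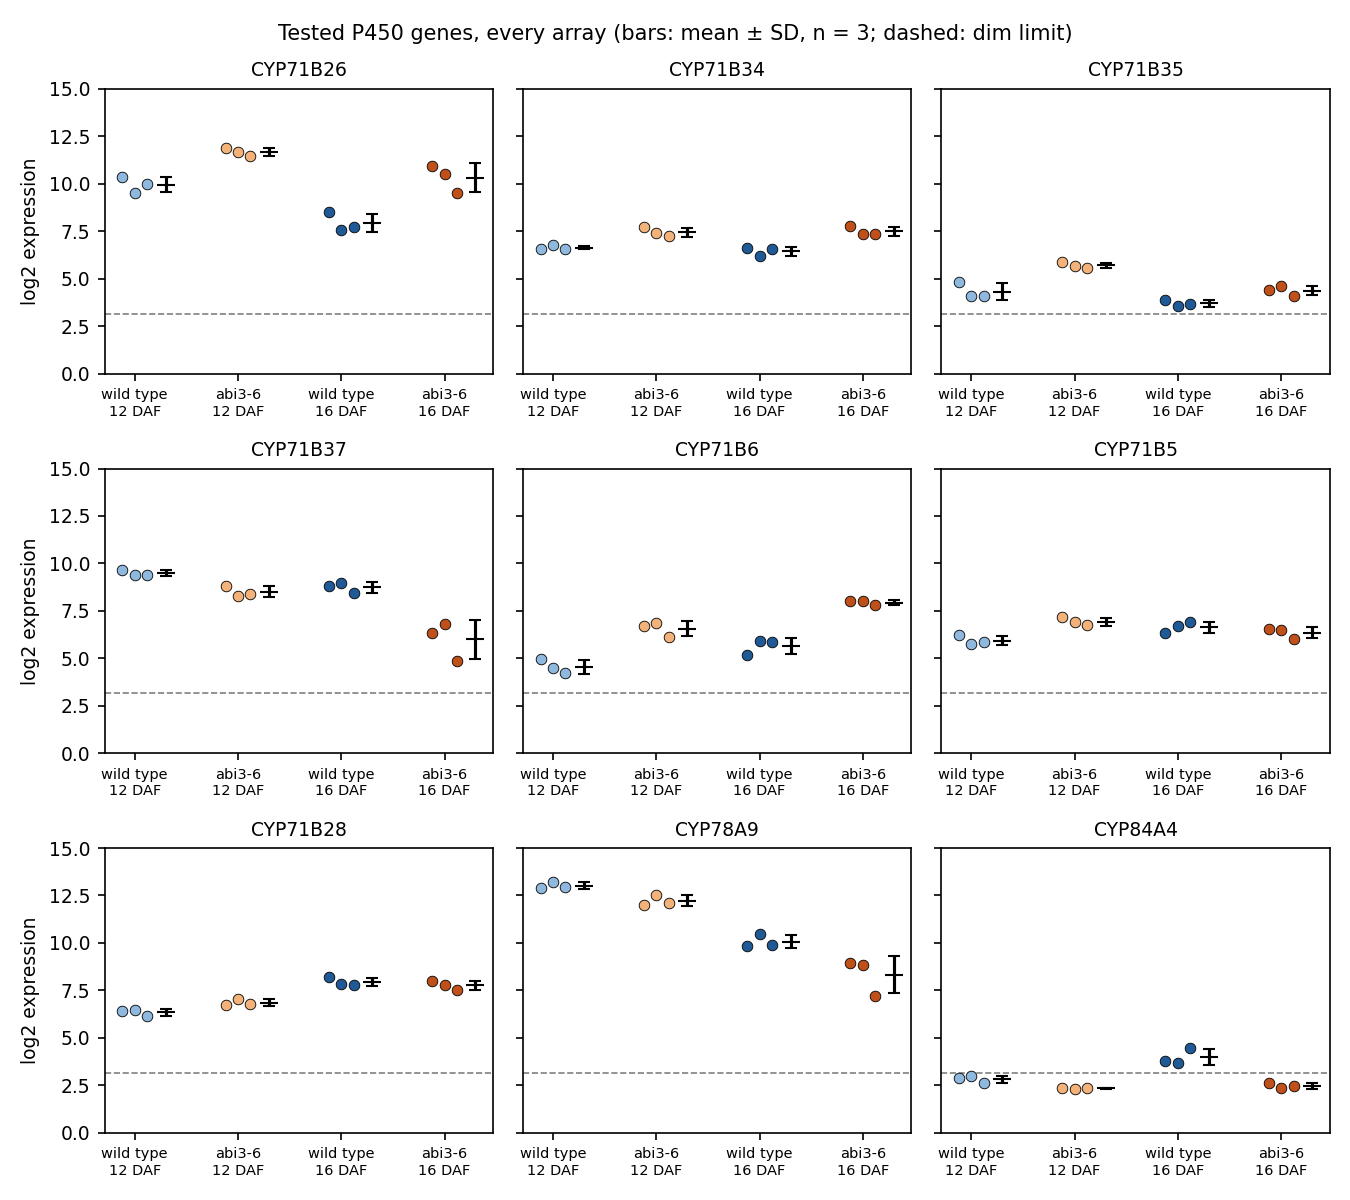
Log2 expression of the 9 tested P450 genes on every array, with 1 panel per gene, points for the 3 arrays of each group, bars for mean ± SD (n = 3) and a dashed line at the dim limit of 3.16. CYP71B6, CYP71B26 and CYP71B34 lie higher in abi3-6 than in wild type of the same age, and CYP71B37 and CYP78A9 lie lower. CYP84A4 crosses the limit in wild type at 16 DAF alone.

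For CYP71B5 and CYP71B28 the genotype difference passed at 12 DAF and did not at 16 DAF, and the change between the ages passed. Over the 9 genes 4 interactions were lower, that of CYP84A4 among them, and 0 higher, beside 40.1% passing among all probe sets tested, 18.9% lower and 21.2% higher. Centring turned the split of all interactions from 3155 higher and 2816 lower to 2361 and 4149. CYP71B5 read 6.22, 5.75 and 5.85 in wild type and 7.16, 6.91 and 6.74 in abi3-6 at 12 DAF. At 16 DAF it read 6.33, 6.68 and 6.90 in wild type and 6.53, 6.50 and 6.03 in abi3-6. The genotypes were apart at 12 DAF and overlapped at 16 DAF. The rise of 2.00-fold at 12 DAF (log2 1.00 ± 0.20 SE, limma adjusted p = 0.000822) stood against -0.29 ± 0.20 at 16 DAF (adjusted p = 0.207, 95% interval -0.71 to 0.14), and the interaction of -1.28 ± 0.28 passed (adjusted p = 0.00235). After centring on array medians the gene was lower in abi3-6 at 16 DAF (-0.65, limma adjusted p = 0.00775).

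CYP71B28 read 6.42, 6.48 and 6.13 in wild type and 6.75, 7.06 and 6.77 in abi3-6 at 12 DAF, and the groups lay apart. At 16 DAF it read 8.18, 7.81 and 7.80 in wild type and 7.97, 7.81 and 7.50 in abi3-6, and they overlapped. The difference was 0.52 ± 0.17 (SE) at 12 DAF (limma adjusted p = 0.0206) and -0.17 ± 0.17 at 16 DAF (adjusted p = 0.369, 95% interval -0.54 to 0.19), with an interaction of -0.69 ± 0.24 (adjusted p = 0.0335). The 12 DAF call was lost after centring (0.40), without wild type 12 DAF replicate 3 (0.41) and without abi3-6 12 DAF replicate 2 (0.42). After centring the gene was lower at 16 DAF (-0.54, limma adjusted p = 0.0142). The interaction was lost with no filter, after quantile normalization (-0.61) and without wild type 12 DAF replicate 3 (-0.59), abi3-6 12 DAF replicate 2 (-0.59), wild type 16 DAF replicate 1 (-0.57) or abi3-6 16 DAF replicate 3 (-0.56).

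The age comparison asked how the same transcripts changed from 12 to 16 DAF in each genotype. In wild type 4 of 9 rose, 3 fell and 2 did not pass, beside 62.4% passing among all probe sets tested, 32.0% higher and 30.4% lower. CYP84A4 is counted among the 4 that rose, but it entered the tests only through wild type at 16 DAF. In abi3-6 2 rose, 5 fell and 2 did not pass, beside 50.6% passing among all, 27.1% higher and 23.5% lower. The median difference of the 9 genes was -0.19 in wild type and -0.59 in abi3-6, against 0.0684 and 0.0717 over all probe sets tested. Centring turned the split of all wild-type calls from 4762 higher and 4519 lower to 6544 and 3721. CYP78A9 had the widest fall of the 9 genes in both genotypes, 7.75-fold in wild type (log2 -2.95 ± 0.36 SE, limma adjusted p = 6.83e-06) and 14.7-fold in abi3-6 (-3.88 ± 0.36, adjusted p = 1.02e-06; -3.32 ± 0.21 without abi3-6 16 DAF replicate 3). CYP71B26 and CYP71B35 fell in both genotypes. CYP71B26 changed by -2.02 ± 0.33 in wild type and -1.35 ± 0.33 in abi3-6, and CYP71B35 by -0.62 ± 0.20 and -1.33 ± 0.20. The wild-type call of CYP71B35 was lost after centring (-0.39), after quantile normalization (-0.45) and without wild type 12 DAF replicate 1 (-0.37) or wild type 16 DAF replicate 2 (-0.54).

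CYP71B6 and CYP71B28 rose with age in both genotypes. CYP71B28 rose 3.01-fold in wild type (log2 1.59 ± 0.17 SE, limma adjusted p = 1.86e-06) and 1.86-fold in abi3-6 (0.90 ± 0.17, adjusted p = 0.000558). CYP71B6 rose by 1.08 ± 0.24 in wild type and 1.37 ± 0.24 in abi3-6. CYP84A4 was at least 1.76-fold higher in wild type at 16 than at 12 DAF. As it entered the tests only through wild type at 16 DAF, that rise is given as a description. The gene was dim in abi3-6 at both ages.

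CYP71B5 moved in opposite directions, by 0.70 ± 0.20 (SE) in wild type (limma adjusted p = 0.00682) and -0.59 ± 0.20 in abi3-6 (adjusted p = 0.0237). The fall in the mutant was lost without abi3-6 12 DAF replicate 1 (-0.47) or 2 (-0.60) or abi3-6 16 DAF replicate 3 (-0.42). CYP71B37 fell 5.69-fold in abi3-6 (-2.51 ± 0.36, limma adjusted p = 6.34e-05; -1.94 ± 0.21 without abi3-6 16 DAF replicate 3). In wild type it differed by -0.75 ± 0.36, which did not pass (adjusted p = 0.0892) but did so without abi3-6 16 DAF replicate 2 (0.0479) or 3 (0.00381) and with the wild-type arrays alone (0.00696). CYP71B34 did not pass in either genotype, with 95% intervals of -0.56 to 0.17 in wild type and -0.32 to 0.41 in abi3-6.

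**Figure D5:**
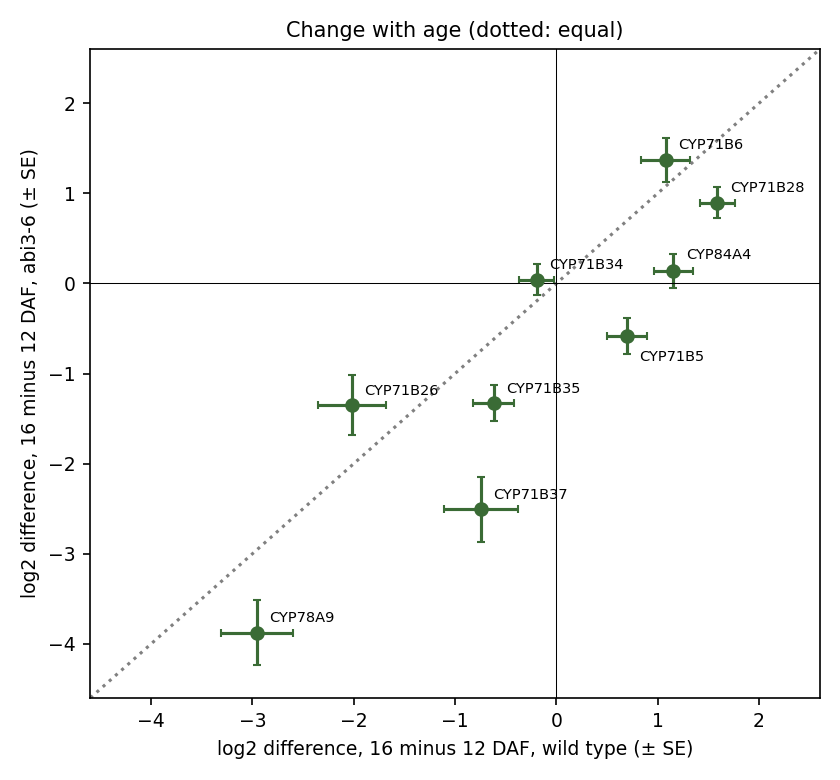
Change from 12 to 16 DAF (log2) of the 9 tested P450 genes in wild type (x axis) and abi3-6 (y axis), with SE from limma and a dotted line where both are equal. CYP78A9 fell furthest in both genotypes, CYP71B6 and CYP71B28 rose in both, and CYP71B5 lies where wild type rose and the mutant fell.

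Abi3-6 replicate 3 at 16 DAF read lower than the mean of the other 2 mutant arrays of that age for all 9 tested genes. The gap was -1.72 for CYP71B37, -1.68 for CYP78A9 and -1.25 for CYP71B26. Over all probe sets tested, the median gap of that array was -0.0117, with the 5th and 95th percentiles at -0.66 and 0.60. None of the genotype calls at 16 DAF was lost without it.

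Of the lists of genes that work beside P450s, few could be analysed. Counted over all these lists, 9 genes were tested. At 12 DAF 2 were higher in abi3-6, 3 lower and 4 did not pass, and at 16 DAF 4 were higher, 3 lower and 2 did not pass. These counts are near the background of 27.1% higher and 23.7% lower at 12 DAF, and 35.6% and 34.6% at 16 DAF, over all probe sets tested. The median difference of the 9 was 0.18 and 0.54, against -0.0033 and -0.0278 over all probe sets tested. Of 10 genes listed as electron donors only 2 had a probe set of their own. Whether either gives electrons to the P450s followed here was not tested, so the electron supply of these enzymes cannot be read from them. The diflavin reductase gene AT3G02280 was lower in abi3-6 at both ages (-1.11 ± 0.21 and -0.92 ± 0.21 SE, log2). The mitochondrial cytochrome b5 reductase gene AT5G20080 did not pass at 12 DAF (0.18 ± 0.15) and was higher at 16 DAF (1.36 ± 0.15).

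For glucosinolate synthesis, into which CYP79 enzymes feed, the glutathione transferase gene GSTU20 and the glucosyltransferase gene UGT74B1 were tested, and both rose. GSTU20 was 11.3-fold higher in abi3-6 at 12 DAF and at least 66.2-fold higher at 16 DAF, where all wild-type arrays were dim. UGT74B1 rose by 1.38 ± 0.21 (SE, log2) and 1.20 ± 0.21. BCAT4 and AT2G31790 of the same list were dim, as CYP79A2 was. For phenylpropanoids, HCT, an acyltransferase of lignin synthesis, did not pass at 12 DAF (0.32 ± 0.19) and was lower at 16 DAF (-0.64 ± 0.19), and the flavonoid reductase gene DFR fell at 12 DAF (-1.36 ± 0.25) and rose at 16 DAF (2.73 ± 0.25, interaction 4.09 ± 0.36, limma adjusted p = 1.54e-06). BAN did not pass in either comparison, and lay near the dim limit at 12 DAF and under it at 16 DAF. FACT, a suberin acyltransferase, was lower in abi3-6 by 0.45 ± 0.14 at 12 DAF and 1.05 ± 0.14 at 16 DAF. At 16 DAF its means, 3.15 in wild type and 2.10 in abi3-6, lay under the dim limit, so that difference is a description. The fall with age in wild type, 191-fold, thus ended near that limit. LYC of carotenoid synthesis did not pass at either age, and BRL1, a brassinosteroid receptor gene, was dim.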

How the data were processed

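Total RNA of 12 seed samples was labelled with biotin and hybridised to 1-colour Affymetrix arrays, per the labels' protocols. The deposited values are the authors' processed table, read as log2 expression from their range. No label states the log base, so scale and centring are inferred. GCOS 1.3 and GCRMA 2.0.0 are listed in the submitters' processing notes, with no role or order. Background subtraction such as GCRMA's alters differences of dim probe sets.

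Leaving out 64 controls, 22746 probe sets remained. The platform annotation gave 1 gene for 13513 of them, several for 503 and none for 8730. All 23 P450 genes were found in the TAIR10.1 gene table, the source of gene type and neighbours. A mean per group was fitted over the 12 arrays together (limma 3.58.1 with eBayes, run under R 4.3.3). The two-sided tests had 8 residual degrees of freedom and 5.41 from the prior. The script was tested on simulated data. "At least" folds set the brighter group's mean against the dim limit. The number of arrays limits the precision.

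The P450 genes and the lists beside them were chosen with earlier results of these data known. Named genes followed a written rule: for genotype contrasts up to 8, and for age contrasts and interactions up to 5, in each direction, with every tested gene of a role list and the 5 with the highest mean, which here covered all 9 tested genes. Role lists of hormone, cuticle, jasmonate, sterol and carotenoid P450s matched 0 members, as did partner lists for abscisic acid, sterols and jasmonate. Python 3.11.15 with matplotlib 3.10.9, numpy 2.4.6 and pandas 2.3.3 handled tables and plots. The alternatives changed the filter, the scaling, the weights, the arrays fitted, the probe sets admitted and the replicate block.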

Additional observations from a re-analysis of the deposited data

Results flagged for a closer look

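The genotype difference of 4 P450 genes differed between 12 and 16 DAF by the test of the interaction in limma. CYP71B37 was lower in abi3-6 at both ages and more so at 16 DAF (interaction -1.76, and -1.19 without abi3-6 16 DAF replicate 3). With no filter that interaction did not pass, and the 12 DAF call of the gene was lost under several settings. CYP71B5 was higher at 12 DAF and did not pass at 16 DAF (-1.28). CYP71B28 had an interaction of -0.69, which depended on the processing. CYP84A4 had one of -1.02, but it entered the tests only through wild type at 16 DAF and was dim in the other 3 groups, so this value is a description.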

How the results depend on the processing

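Over 20 alternative settings, 31 of the 45 results of single genes kept their side of the threshold, and none of the 886 values reversed a call. Direction was not compared where neither setting passed. The change of CYP71B34 with age in wild type, for one, went from -0.19 to 0.03 after centring. The count of genes lower in abi3-6 at 12 DAF, 2 as reported, was 0 with no filter and 1 after quantile normalization. It was 1 with a stricter filter at the 60th percentile, where CYP84A4 is no longer tested, and ran from 0 to 2 with arrays left out in turn. After centring it was 3, as it was with only the 2 groups of the contrast fitted. The count lower at 16 DAF, 3 as reported, was 5 after centring and 13 with no filter, where 14 dim genes enter. The count of positive interactions, 0 as reported (CYP71B26 and others not passing), was 1 with array weights and 0 to 1 with arrays left out. Probe sets ending in _s_at or _x_at and further probe sets per gene did not occur among these genes, so those alternatives changed no count. The replicate block gave 34 calls against 33: CYP84A4 at 12 DAF was lost (adjusted p = 0.0627), and CYP78A9 at 12 DAF (0.0398) and the CYP71B35 interaction (0.0377) passed. The titles of the wild-type 12 DAF arrays hold a further number before the replicate number, unlike those of the other groups. Matching them by replicate number is therefore an assumption, and what the further number records cannot be told apart from that group. Samples sharing a replicate number correlated in their deviations from the group means with r from -0.02 to 0.16, above 0 for 15 of 18 pairs and over 0.1 for 3. The own number was the best match in 21 of 36 comparisons, where chance gives 12, which is a hint of pairing from the data and not from the design. Pairing was taken as shown only with every pair over 0.1, so the fit without the block is the one reported. Signals near the dim limit, as for CYP84A4 and CYP71B35, limit what can be said of their size.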

Other observations

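CYP71B24 read 4.32 on 1 wild-type array of 16 DAF (replicate 1) and between 2.58 and 2.94 on the other 11 arrays. On the same array CYP71B26, from another run of the subfamily on chromosome 3, read 0.83 above the mean of the other 2 arrays of its group, while on the same measure CYP71B6 stood at -0.72 and CYP71B5 at -0.46.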
